A study of Mus musculus with 12 samples.

Results

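Fed mouse embryonic fibroblasts that lack Vps15 were set directly against starved control fibroblasts, to ask which transcript levels of the knockout in full medium match those of starved control cells and which separate the 2 states. All genes of the deposited expression table were compared between the 3 Vps15KO basal libraries (library names pLEX_CRE, with no EBSS) and the 3 WT EBSS libraries (library names EBSS_pLEX_GFP). These are 6 of the 12 libraries of the series. The 3 WT basal libraries served as the point of reference, and the 3 Vps15KO EBSS libraries are given beside them. All cells were Vps15f/f fibroblasts, which carry floxed alleles in every group. Per the labels, WT cells received adeno-GFP and Vps15KO cells adeno-CRE, the recombinase that cuts out floxed DNA, and 5 days passed before sampling. No label says what pLEX stands for. Cells reached 90% confluence in DMEM with 4.5 g/L glucose and 10% serum. Basal cells stayed in basal medium, and EBSS cells spent 2 h in EBSS, a salt solution with glucose and without amino acids or serum. The direct comparison therefore differs in genotype, in Cre and in medium at once, and these cannot be told apart within it. The labels do not say whether replicates came from separate cultures, so p-values measure the spread between these libraries, which may be technical. In a bulk sample, fewer cells of a type and less RNA per cell cannot be told apart.

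As background, Vps15, encoded by Pik3r4, is the regulatory subunit of class 3 phosphoinositide 3-kinase, which makes a phospholipid needed to form autophagosomes and to mature endosomes. Starvation for amino acids and serum lowers mTORC1 and AKT signalling, which frees FOXO and MiT/TFE transcription factors to act in the nucleus, while uncharged tRNAs act through GCN2 and the transcription factor ATF4. A cell without class 3 kinase and a starved cell are thus both often described as cells with changed lysosomal and nutrient signalling.

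The promoters of 8 genes are shown because they carry short motifs that were frequent in the gene groups on which the comparison turns. They are windows upstream of the RefSeq start site (build GRCm38.p6), read from 5′ to 3′ on the strand of the gene, and capitals mark the motif match on either strand. Cxcl10 (chr5:92349028-92349127, minus strand) and Rsad2 (chr12:26456498-26456597, minus strand) hold the core of the interferon-stimulated response element, GAAA and GAAA with any 2 bases between.
Cxcl10: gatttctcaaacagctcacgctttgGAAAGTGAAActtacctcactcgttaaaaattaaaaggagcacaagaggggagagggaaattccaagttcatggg
Rsad2: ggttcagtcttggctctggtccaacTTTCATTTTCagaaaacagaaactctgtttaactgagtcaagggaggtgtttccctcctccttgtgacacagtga
Chac1 (chr2:119351023-119351122, plus strand) and Asns (chr6:7693210-7693309, minus strand) hold TGATGNAAN, the amino acid response element that ATF4 binds with a partner.
Chac1: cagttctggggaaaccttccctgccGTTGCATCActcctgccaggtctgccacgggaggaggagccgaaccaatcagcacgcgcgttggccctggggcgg
Asns: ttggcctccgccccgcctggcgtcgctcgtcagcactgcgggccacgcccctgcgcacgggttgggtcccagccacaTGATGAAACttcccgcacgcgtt
Msmo1 (chr8:64733614-64733763, minus strand) and Plk1 (chr7:122159335-122159434, plus strand) hold CCAAT, the box bound by NF-Y.
Msmo1: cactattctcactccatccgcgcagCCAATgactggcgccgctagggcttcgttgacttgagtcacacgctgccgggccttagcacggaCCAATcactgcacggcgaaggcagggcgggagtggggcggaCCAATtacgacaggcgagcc
Plk1: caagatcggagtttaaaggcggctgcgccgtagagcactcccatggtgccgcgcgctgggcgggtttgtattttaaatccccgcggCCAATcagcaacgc
Ciart (chr3:95882252-95882369, minus strand) and Cry1 (chr10:85185055-85185154, minus strand) hold the E-box CACGTG, bound by clock and by MiT/TFE factors.
Ciart: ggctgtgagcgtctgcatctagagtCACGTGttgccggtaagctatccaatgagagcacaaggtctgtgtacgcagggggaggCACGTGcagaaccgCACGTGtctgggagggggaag
Cry1: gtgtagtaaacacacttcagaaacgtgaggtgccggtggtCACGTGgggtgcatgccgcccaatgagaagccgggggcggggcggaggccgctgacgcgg
The first 6 genes differed between the 2 states and the last pair matched, as described below for each.

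The 12 libraries held 21278921 to 21698584 reads in genes, so depth was nearly even. Values are normalized counts, the reads worked back from the deposited log2 values and divided by the library's size factor. They are given as 3 libraries or as mean ± SD (n = 3), Vps15KO basal before WT EBSS. A signed value in parentheses is the log2 difference of Vps15KO basal minus WT EBSS, followed by its SE where one is given, and genes called higher or lower passed limma's test at adjusted p under 0.05. Among the 6 libraries compared, WT EBSS replicate 1 stood apart from replicates 2 and 3: its read counts differed from theirs by a chi-square of 7.81 and 11.2 per gene, against 3.65 between those 2, and mitochondrially encoded mRNAs took 1.03% of its reads against 1.67% and 1.82%. WT basal replicate 2 stood apart as well (21.7 and 21.3, against 3.08). Fibroblast markers were present at high levels in both states, with a summed normalized count of 295454 to 298359 in Vps15KO basal and 523362 to 558106 in WT EBSS over 14 genes, and 11 of the 13 tested were lower in Vps15KO basal. Of 10 macrophage and leukocyte markers, 3 to 6 were at 0 in a library, and the sum of 2926 to 3809 in Vps15KO basal against 808 to 908 in WT EBSS was nearly all Cd68, a lysosomal glycoprotein (3449 ± 475 against 822 ± 51, SD, n = 3). Ptprc, Itgam, Adgre1, Cd3e and Tyrobp had means below 1 in both groups, and Csf1r stood at 6.85 ± 2.92 against 14.5 ± 2.11 (-0.44). Endothelial markers summed to 340 to 353 against 175 to 199. Nearly all of this was Flt1 (325 ± 9.21 against 175 ± 14.7), the only 1 of the 8 with a level high enough to be tested. Epithelial markers summed to at most 38.2, erythroid ones to at most 16.3 and muscle ones to at most 61.7 in any of the 6 libraries. Neural markers summed to 1756 to 1937 in Vps15KO basal against 2353 to 2453 in WT EBSS, and adipocyte markers to 587 to 617 against 520 to 549. Most of the adipocyte sum was Fabp4, which was not called (542 ± 5.81 against 490 ± 19.2). The part of these marker genes in the results was not tested.

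By the median over pairs of libraries, the 2 states lay farther apart from each other than either lay from fed control cells. Over the 14279 genes tested, the root mean square log2 difference between a Vps15KO basal and a WT EBSS library had a median of 0.640 (range 0.601 to 0.655, 9 pairs). WT basal libraries lay at a median of 0.505 from Vps15KO basal (range 0.474 to 0.582) and 0.519 from WT EBSS (range 0.490 to 0.622), so the last range overlaps that of the direct comparison. Libraries of 1 group lay 0.153 to 0.265 from each other. The distance between WT basal and Vps15KO EBSS had a median of 0.680, and that between the 2 knockout groups 0.454. These distances are descriptions, and no test was made of them.

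**Figure D1:**
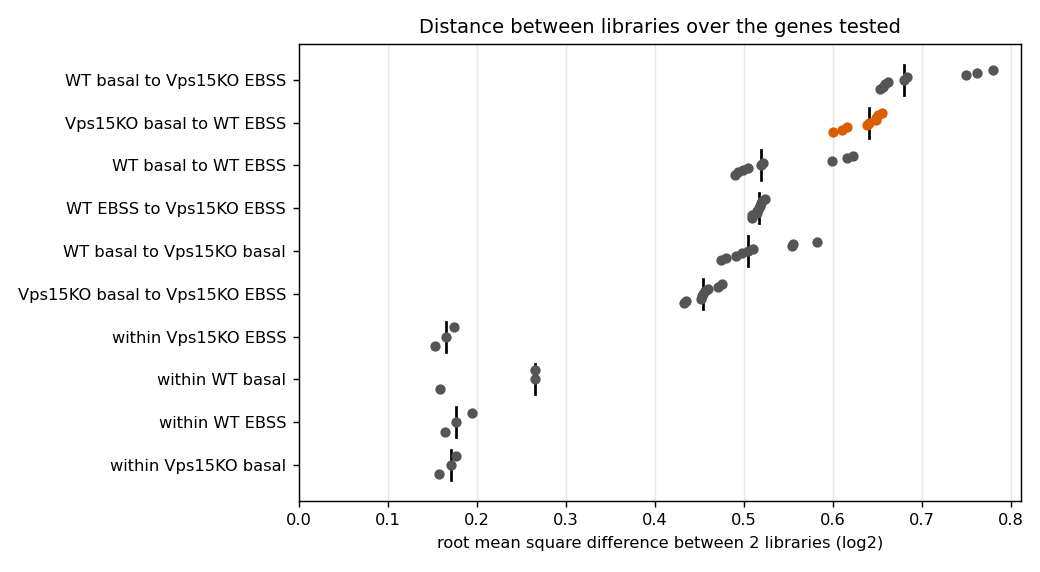
Root mean square log2 difference between 2 libraries over the 14279 genes tested, for each pair of groups and within each group; each point is a pair of libraries and the bar is the median. The 9 pairs of a Vps15KO basal and a WT EBSS library (orange) sit between 0.601 and 0.655, to the right of every pair within a group.

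Most genes separated the 2 states. By limma's moderated test, with Benjamini-Hochberg adjustment over the 14279 genes tested, 4621 genes (32.4%) were higher in Vps15KO basal than in WT EBSS and 4772 (33.4%) were lower, 65.8% in all at adjusted p under 0.05. Libraries of the 2 groups did not overlap in 10340 genes (72.4%). A difference of at least 1 on the log2 scale was reached by 654 higher genes (4.58%) and 774 lower genes (5.42%). The median size of a difference was 0.344, with a median standard error of 0.0897, and the median difference over all genes was 0.0016. Without WT EBSS replicate 1, 4385 genes were higher and 4500 lower. Matching was tested separately, as a difference shown to lie between -0.3 and 0.3 on the log2 scale (1.23-fold either way) at adjusted p under 0.05. By that test 1078 genes (7.55%) matched, and within 0.5 (1.41-fold) 6129 genes did (42.9%). The remaining 3818 genes were neither called different nor matched at 0.3, and 10 were both.

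**Figure D2:**
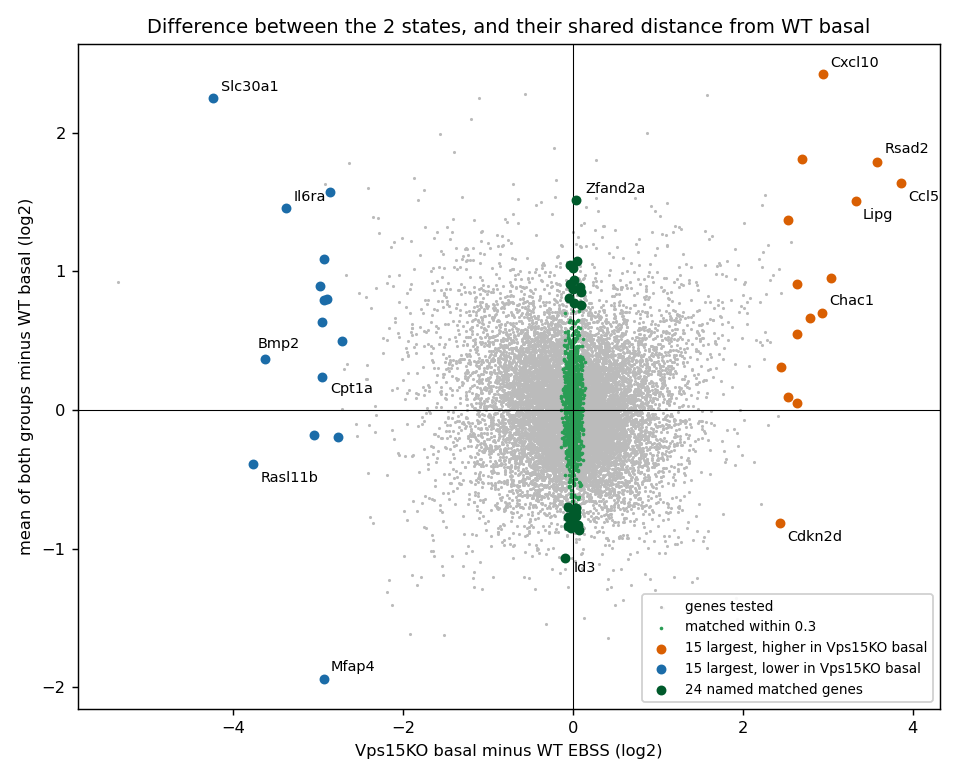
Each tested gene by its log2 difference between Vps15KO basal and WT EBSS (horizontal axis) and by the distance of the mean of both groups from WT basal (vertical axis, log2). Orange and blue points are the 15 largest differences in each direction among genes whose groups do not overlap, light green points are the genes matched within 0.3, and dark green points are the 24 named matched genes, which lie at a horizontal value near 0 with Zfand2a at 1.51 and Id3 at -1.07 on the vertical axis.

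Pik3r4 (chr9:105642995-105687655 in GRCm38.p6, the build of all gene coordinates given here), the gene whose deletion the labels name, was read first. It stood at 633, 699.8 and 640.3 normalized counts in Vps15KO basal and 959, 891 and 834 in WT EBSS, with 864, 879 and 884 in WT basal and 623, 602 and 672 in Vps15KO EBSS. All 6 knockout libraries lay below all 6 WT libraries. The log2 difference was -0.43 ± 0.07 (SE, limma adjusted p = 2.8e-05), or 1.36-fold higher in WT EBSS. Reads remained in the knockout, and the table gives 1 value per gene, so exons inside and outside the deleted stretch cannot be told apart. The list of subunits and regulators of the kinase complexes divided evenly: 4 of the 9 genes measured were higher, 4 lower and 1, Bcl2, not called. Over all genes tested 32.4% were higher and 33.4% lower. Atg14, which brings the kinase to autophagosome formation, stood at 1077 ± 35.2 in Vps15KO basal and 1816 ± 57.8 in WT EBSS (log2 difference -0.74 ± 0.06). Rubcn, an inhibitor of the endosomal complex, stood at 1119 ± 80.7 and 552 ± 8.41 (0.98 ± 0.07), and Nrbf2, a subunit of the autophagy complex, at 364 ± 52 and 189.7 ± 3.95 (0.84 ± 0.11). Pik3c3, the catalytic subunit, was lower by a small amount (-0.22). Without WT EBSS replicate 1, 2 of the 9 were called higher.

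Genes of the interferon response and of antigen presentation were mostly higher in the fed knockout than in starved control cells. Of 28 interferon response genes tested, 22 were higher in Vps15KO basal, 3 lower and 3 not called, with a median log2 difference of 0.72. Among all genes tested, 32.4% were higher and 33.4% lower. Of 14 genes of MHC class I presentation, 13 were higher and 1 lower (median 1.06), and of 16 chemokines and cytokines 11 were higher and 2 lower (median 0.46). Ccl5 (chr11:83525778-83530518), a chemokine that draws T cells and monocytes, had the largest difference of all named genes in this direction. It stood at 18216, 20691 and 19009 in Vps15KO basal and at 1450, 1155 and 1327 in WT EBSS, 14.7-fold apart (log2 difference 3.86 ± 0.10, adjusted p = 9.0e-16). The WT basal libraries, at 1388, 1851 and 1617, lay with WT EBSS, and the Vps15KO EBSS libraries, at 16329, 17334 and 19145, with Vps15KO basal. Rsad2 (chr12:26442743-26456452), the antiviral enzyme viperin, stood at 842, 1138 and 1304 against 71.5, 62.1 and 65.2 (3.58 ± 0.14), with WT basal at 63.1, 50.8 and 89. The fed knockout lay above all 6 WT libraries, and the WT basal and WT EBSS libraries overlapped. Cxcl10 (chr5:92346638-92348889), an interferon-induced chemokine, stood at 3069, 4100 and 4469 against 571, 459.9 and 405 (2.94 ± 0.13), and here WT basal was lower than both (228, 193 and 284).

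Other antiviral genes among the 15 largest differences were Oasl1 (2.69) and Oas3 (2.63), members of the oligoadenylate synthetase family. Cxcl1, which draws neutrophils, stood at 1560, 1391 and 1233 against 209, 196 and 196 (2.64 ± 0.11). Its WT basal libraries lay between the 2 states, at 517, 447 and 615. Ccl7, a monocyte chemokine, stood at 353 ± 43.6 against 49.8 ± 16.2 (2.36), with WT basal at 425 ± 18.9 and Vps15KO EBSS at 61.8 ± 6.47, so here WT basal lay on the side of the fed knockout. In the presentation list, H2-K1, a class I heavy chain, stood at 5111, 5182 and 4928 against 1101, 1072 and 927 (2.27 ± 0.09), Psmb8, a subunit of the immunoproteasome, at 1016 ± 76.1 against 168 ± 27.1 (2.43), and the peptide transporter Tap1 at 684 ± 37.1 against 183 ± 15.8 (1.76). Of the macrophage and leukocyte markers, Ptprc and Cd3e were at or near 0 in both groups. Csf1r was low and lower in Vps15KO basal (6.85 ± 2.92 against 14.5 ± 2.11), and Cd68 was higher. Which cells these transcripts came from was not tested. Class I genes have near-identical copies whose reads the counting may have split unevenly. Some interferon genes were not called or went the other way: the RNA sensor Ddx58 stood at 2212 ± 81.8 against 2301 ± 427 and the antiviral enzyme Cmpk2 at 112 ± 14.5 against 112 ± 22.3, neither called, and the signalling factor Irf9 was lower in Vps15KO basal (-0.34). Of 15 nucleic acid sensing genes 7 were higher, 2 lower and 6 not called, with 3 matched (median 0.13). The shares over all genes tested were 32.4% higher, 33.4% lower and 7.55% matched within 0.3. In the sensing list the kinase Tbk1, which acts downstream of the sensors, was lower (-0.72). Of 21 interferon response genes with a promoter in the RefSeq table, 11 (52.4%) held the response element core shown above in the 250 bases before the start, on either strand, against 3.2% of the 10879 tested genes with a promoter. This is a match of letters and not a binding site.

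**Figure D3:**
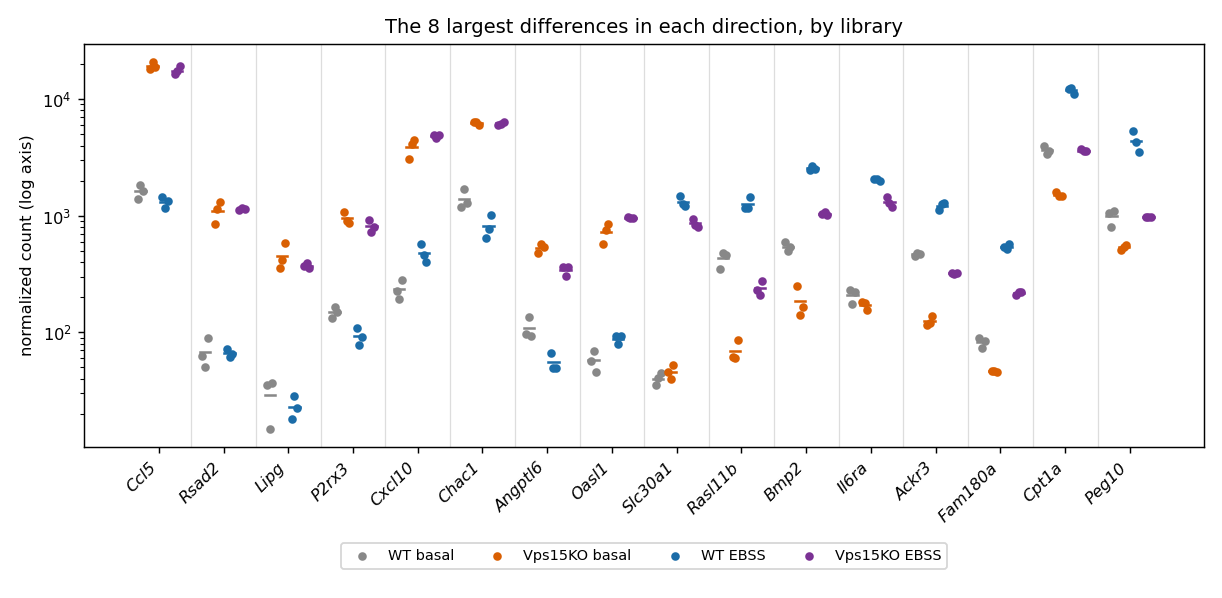
Normalized counts (log axis) by library of the 8 genes with the largest differences in each direction; points are libraries, coloured by group, and bars are group means. For Ccl5 the 3 Vps15KO basal libraries sit between 18216 and 20691 and the WT EBSS libraries between 1155 and 1450, and for Slc30a1 the order is the opposite.

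ATF4 targets, which supply amino acids and charge tRNA, were higher in the fed knockout than in amino acid-starved control cells. Of 36 ATF4 response genes 26 were higher in Vps15KO basal, 5 lower and 5 not called (median 0.82). Against WT basal the list's median lay at 1.05 in Vps15KO basal and 0.25 in WT EBSS, so it was above fed control cells in both states. Both of those values share the WT basal libraries. Of 20 cytosolic tRNA synthetases 18 were higher and 1 lower (median 0.66), and of 13 serine and one-carbon enzymes 8 were higher and 3 lower (median 0.60). Chac1 (chr2:119351242-119354326), which degrades glutathione, stood at 6366, 6421 and 6028 against 645, 763 and 1020, 7.75-fold apart (2.93 ± 0.13). WT basal lay between, at 1186, 1695 and 1284, and nearer to WT EBSS. Asns, which makes asparagine, stood at 9008, 8831 and 8389 against 2862, 2562 and 2841 (1.66 ± 0.08), with WT basal at 2581, 3451 and 2855, overlapping the starved libraries. Gpt2, a mitochondrial alanine aminotransferase, stood at 4077 ± 122 against 1257 ± 133 (1.68), and Aldh1l2, a mitochondrial folate enzyme, at 3060.0 ± 81.2 against 1074 ± 25.2 (1.49). The kinase-like regulator Trib3 differed by 2.32 and the transcription factor Ddit3 by 1.98, while Atf4 mRNA itself differed by 0.50.

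Several amino acid transporters of the same list went the other way or matched. Slc38a2 (chr15:96687392-96699728), a carrier of small neutral amino acids, stood at 8775, 8094 and 8035 in Vps15KO basal and 26347, 27067 and 26236 in WT EBSS (-1.67 ± 0.07). Its WT basal libraries, at 12096, 9806 and 11730, lay above the fed knockout, and Vps15KO EBSS, at 28669, 27575 and 26353, lay with starved control cells. Slc7a1, a carrier of cationic amino acids, was lower as well (-0.64). Slc1a4, a carrier of neutral amino acids, matched within 0.3 (3054 ± 108 against 3141 ± 89.7, with WT basal at 2214 ± 184), as did the transcription factor Cebpg (1923 ± 157 against 1877 ± 63). Among the synthetases, Wars, which charges tryptophan tRNA, stood at 2833 ± 79.4 against 1201 ± 21.7 (1.22) and Vars, for valine, at 5783 ± 401 against 2520.3 ± 36.5 (1.19), and Hars, for histidine, was the 1 lower member (-0.17). Of 31 ATF4 response genes with a promoter, 9 (29%) held TGATGNAAN on either strand, against 2.52% of all tested.

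Cholesterol synthesis separated the states with nearly every member. Of 25 genes of synthesis and uptake 22 were higher in Vps15KO basal, 1 lower and 2 not called, with a median of 1.47. The list's median lay 1.26 above WT basal in Vps15KO basal and 0.18 below it in WT EBSS. Both of those values share the WT basal libraries. Fdft1 (chr14:63145150-63181687), squalene synthase, stood at 5472, 6064 and 5775 against 967, 881 and 1072, 5.93-fold apart (2.54 ± 0.07, adjusted p = 2.7e-15). WT basal lay between, at 2091, 2247 and 2340. Msmo1 (chr8:64718123-64733578), a sterol demethylase, stood at 5729, 5552 and 5803 against 1153, 1159 and 1219 (2.25 ± 0.06), and Mvd, mevalonate decarboxylase, at 1729.7 ± 213 against 322 ± 30.2 (2.32). Insig1, a feedback regulator, was above WT basal in both states (6518 ± 401 and 3541 ± 257 against 1188 ± 158). Hsd17b7, a reductase of sterol synthesis, was the 1 lower member (-0.43). Of 13 fatty acid synthesis genes 9 were higher and 2 lower (median 0.59), among them the desaturase Fads1 (0.84) and the elongase Elovl6 (0.83), and the desaturase Fads2 matched (3912 ± 163 against 3672 ± 25.3). In the 250 bases before the start, CCAAT on either strand was found in 16 of 17 cholesterol promoters (94.1%) and in 40.5% of all tested.

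All 25 mitosis genes tested were higher in Vps15KO basal, by 0.72 to 1.58 (median 1.23). Plk1 (chr7:122159435-122169884), a mitotic kinase, stood at 485, 634 and 682 against 169, 202 and 199 (1.52 ± 0.10), with WT basal at 242, 220.2 and 228. Tpx2, a spindle assembly factor, stood at 2313, 2760 and 2952 against 869.5, 964 and 946 (1.5 ± 0.08), and Aurka, the kinase it binds, at 848 ± 140.1 against 345 ± 25 (1.22). The groups did not overlap in any of the 25, as in 72.4% of all genes tested. Genes of DNA replication were divided, with 15 of 28 higher, 4 lower and 9 not called (median 0.24). The shares over all genes tested were 32.4% higher and 33.4% lower. Ccne1, a cyclin of S-phase entry, was higher (396 ± 20.9 against 105 ± 12.6, 1.68), as was Mcm2 of the replicative helicase (1.12), while the helicase subunit Mcm7 matched (1297 ± 62.3 against 1346 ± 59.9) and Slbp, which binds histone mRNA, was lower (-0.88). Cdkn2d, an inhibitor of cyclin-dependent kinases, was among the 15 largest differences: it stood at 567, 616 and 662 against 81.5, 96.7 and 96.8 (2.44 ± 0.10), with WT basal at 463, 519 and 395, near the fed knockout. CCAAT was present in 18 of 21 mitosis promoters (85.7%), against 40.5% of all tested. It was not confined to lists higher in the fed knockout. FOXO targets held it in 12 of 20 promoters (60%) and the 15 largest lower genes in 6 of 11 (54.5%). Interferon response genes, mostly higher, held it in 7 of 21 (33.3%).

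Glycolytic and growth genes were modestly higher in the fed knockout. Of 18 glycolysis genes 14 were higher and 4 not called (median 0.42). The phosphofructokinase Pfkp differed most (3039.6 ± 33.3 against 1195 ± 79.7, 1.33), followed by the lactate exporter Slc16a3 (0.98) and the glucose transporter Slc2a1 (0.92), and the kinases Pgk1 (17805 ± 874 against 17599.5 ± 2550.4) and Pfkl (4067 ± 169 against 3886 ± 65.2) matched. Of 50 cytosolic ribosomal protein genes 35 were higher and 15 not called (median 0.28), and without WT EBSS replicate 1, 38 were higher. Their median lay 0.04 below WT basal in Vps15KO basal and 0.35 below it in WT EBSS. Of 23 NRF2 targets, the antioxidant genes, 17 were higher and 3 lower (median 0.67). The quinone reductase Nqo1 stood at 2099 ± 224 against 812 ± 107 (1.34), and the ferritin chains Fth1 and Ftl1 differed by 1.52 and 1.55. Hmox1 (chr8:75093618-75100593), heme oxygenase, went the other way: it stood at 5382, 5450 and 5388 in Vps15KO basal, 11194, 11806 and 12040 in WT EBSS and 1668, 1625 and 1655 in WT basal (-1.11 ± 0.06), so both states were above fed control cells and the starved one more so.

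The other named genes among the 15 highest differences had WT basal nearer to WT EBSS than to the fed knockout. Lipg, an endothelial lipase, stood at 354, 418 and 582 against 18.1, 28.5 and 22.4 (3.33 ± 0.17), with WT basal at 35.1, 14.8 and 37. P2rx3, an ATP-gated ion channel, stood at 1078, 909.6 and 866 against 109.7, 78.3 and 91.8 (3.03 ± 0.11), and the small GTPase Rnd1 at 854 ± 158 against 113 ± 5.93 (2.64). Ptgir, the prostacyclin receptor (2.45), Angptl6 (2.79) and Ms4a4d (2.53) completed them.

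Genes high in starved control cells and low in the fed knockout included carriers, receptors and ligands. Slc30a1 (chr1:191906697-191913248), which exports zinc from the cell, had the largest difference in this direction among genes with a mean at least 3 log2 units above the floor of the deposited values. It stood at 45.9, 40.2 and 52 in Vps15KO basal and 1471, 1268 and 1212 in WT EBSS, 28.6-fold apart (-4.23 ± 0.10, adjusted p = 5.7e-16). WT basal, at 35.1, 40.2 and 45, overlapped the fed knockout, and Vps15KO EBSS, at 947, 826 and 801, lay nearer starved control cells. The metallothioneins, which bind zinc, were lower in Vps15KO basal than in WT EBSS and above WT basal in both: Mt2 stood at 1652, 1440 and 1567, 4789, 3779 and 3939 and 599, 741 and 709.7 in that order of groups (-1.4 ± 0.09). Metallothionein copies share sequence, and the counting may have split their reads unevenly. Over 15 metallothioneins and zinc carriers 4 were higher, 8 lower and 3 not called. Among all genes tested, 32.4% were higher, 33.4% lower and 7.55% matched within 0.3. The 3 carriers Slc30a6, Slc39a1 and Slc39a6 matched.

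Bmp2, a ligand of the TGF-beta family, stood at 252, 142 and 166 against 2470, 2694 and 2518 (-3.63 ± 0.12), with WT basal between at 590.2, 501 and 542. Of 8 ID genes and inhibitory SMADs, which BMP signals raise, 6 were lower in Vps15KO basal, 1 higher and 1 not called. Id2, which blocks basic helix-loop-helix factors, stood at 73.2, 81.3 and 75.5 against 812, 726 and 729.9 (-2.93 ± 0.12), with WT basal at 143, 81.5 and 102. Its relative Id3 matched instead, as described below. Il6ra, a receptor subunit for interleukin 6, stood at 182, 180.3 and 157 against 2051, 2078 and 1996 (-3.37 ± 0.09), and Ackr3, a decoy receptor for the chemokine Cxcl12, at 116, 119.6 and 138 against 1117, 1257 and 1290 (-3.04 ± 0.08). WT basal overlapped the fed knockout for Il6ra (229.5, 176 and 219.9) and lay between the states for Ackr3 (448, 483 and 467). Of 16 receptor tyrosine kinases and insulin receptor substrates 12 were lower and 3 higher (median -0.60). Pdgfrb, a receptor for platelet-derived growth factor, stood at 4387, 4016 and 3898 against 13393, 13831 and 13742 (-1.73 ± 0.06), with WT basal between (7292, 8120 and 7365), and Irs1, which couples the insulin receptor to PI3K, at 667 ± 34 against 2245 ± 151 (-1.71). The ephrin receptor Epha2 was higher (1.79). Rasl11b, a Ras-like GTPase (61.5, 60.8 and 85.3 against 1165, 1163 and 1460, -3.76 ± 0.13), and the pro-apoptotic Bmf (807, 712 and 692 against 5332, 5117 and 5041, -2.77 ± 0.06) had WT basal levels between the states (353, 483 and 463 for Rasl11b, and 2200, 2275 and 2265 for Bmf). The other 6 among the 15 lowest differences were the transcription factor Cebpa (68.5 ± 4.76 against 675 ± 29.1, -2.89), the ligand Wnt9a (96.9 ± 8.17 against 869.8 ± 90.0, -2.86), the retinol dehydrogenase Rdh10 (-2.72), the acyltransferase Gpat3 (-2.92), Peg10 (-2.95) and Fam180a (-2.98).

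FOXO targets, which insulin signalling keeps low, were mostly lower in the fed knockout. Of 23 tested 14 were lower in Vps15KO basal, 4 higher and 5 not called (median -0.46). Against WT basal their median lay at 0.10 in Vps15KO basal and 0.55 in WT EBSS. Fbxo32 (chr15:58175879-58214892), a ubiquitin ligase of muscle wasting, stood at 1463, 1410 and 1373 against 9938, 8889 and 8136, 6.35-fold apart (-2.64 ± 0.07), and WT basal, at 1021, 965 and 1079, was below both. Foxo1 itself stood at 700.4 ± 25.3 against 1820.1 ± 37.6 (-1.34) and the pro-apoptotic Bcl2l11 at 914 ± 20.7 against 2684 ± 276 (-1.52). Eif4ebp1, a translation inhibitor, was higher (1.14), and Cited2 (1069 ± 32.9 against 1059.5 ± 41.7) and Klf2 (546 ± 20.7 against 521 ± 27.7) matched. Cpt1a (chr19:3322326-3385735), which admits fatty acids to mitochondria, stood at 1605, 1484 and 1465 against 12335, 12563 and 11078, 7.90-fold apart (-2.96 ± 0.07). WT basal lay between, at 3947, 3383 and 3557, and Vps15KO EBSS was at the WT basal level (3725, 3580 and 3560). Angptl4, a secreted inhibitor of lipoprotein lipase, stood at 1.95, 1.96 and 0 against 721, 711 and 719.7, with WT basal at 44.1, 38.1 and 28; the first group amounts to a few reads, and no fold is given. Of the 15 genes of PPAR targets and fatty acid oxidation tested, Cpt1a and Angptl4 included, 5 were higher, 8 lower and 2 not called. Among all genes tested, 32.4% were higher and 33.4% lower.

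Matrix genes were lower in the fed knockout than in starved control cells, which lay close to fed control cells. Of 26 collagens and fibrillar matrix genes 24 were lower and 1 higher (median -1.07), and of 20 proteoglycans and matricellular proteins 15 were lower and 1 higher (median -0.68). Fibroblast markers, which share genes such as Col1a1 and Lum with these lists, were lower in 11 of 13 cases (median -1.16), and their part in this result was not tested. Relative to WT basal, the collagen list's median lay at -0.94 in Vps15KO basal and -0.11 in WT EBSS. Col1a1, a chain of type I collagen, stood at 19828, 21440 and 23320 against 58946, 65427 and 63767 (-1.54 ± 0.09), with WT basal at 70881, 90837 and 79636. Mfap4 (chr11:61485431-61488708), a microfibril protein, stood at 202, 168 and 190.2 against 1323, 1673 and 1861 (-2.93 ± 0.17), with WT basal at 1758, 2785 and 2275. WT EBSS and WT basal overlapped there, and Vps15KO EBSS was as low as the fed knockout (148, 200.2 and 279.5). Lum, a keratan sulphate proteoglycan, was low in the same libraries (101 ± 8.32 against 483 ± 66.1, -1.99, with WT basal at 503 ± 26.3). Of 18 YAP and SRF targets 11 were lower and 3 higher (median -0.41), with the adhesion protein Vcl at 6806 ± 385 against 15514 ± 75.9 (-1.19) and the myosin light chain Myl9 at 2044 ± 119 against 4653 ± 185 (-1.18). Within these lists Ccn3, a matricellular protein, was higher (1.10), as was the collagenase Mmp13 of the metalloproteinase list (1.75), and Spp1 did not pass the test (239935 ± 21617 against 225330 ± 15003).

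Chromatin regulators were more often lower than higher, beside 32.4% higher, 33.4% lower and 7.55% matched within 0.3 over all genes tested. Of 31 remodellers 19 were lower and 7 higher (median -0.36), of 23 histone acetylation genes 13 were lower, 2 higher and 8 not called (median -0.31), and of 30 histone methylation genes 15 were lower and 6 higher (median -0.24). After removal of length and GC trends from each library, 17 remodellers were lower and 10 higher (median -0.15), and the methylation genes numbered 13 lower and 10 higher. The acetyltransferase Kat6b stood at 579, 514 and 453 against 2203, 2062 and 1921 (-1.95 ± 0.11), with WT basal nearer the fed knockout (848, 618 and 858). Setd1b, a methyltransferase, stood at 390.0 ± 31.5 against 1319.6 ± 109 (-1.69), and the deacetylase Hdac4 at 796 ± 15.1 against 1993 ± 299.9 (-1.28). Sirt1, a deacetylase that depends on NAD, stood at 181, 140.2 and 169.6 against 550.5, 577 and 558 (-1.63 ± 0.10), while Sirt3 (0.50), Sirt4 (0.71) and Sirt7 (0.74) were higher. The acetylation list also held 7 matched genes of its 23 tested.

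**Figure D4:**
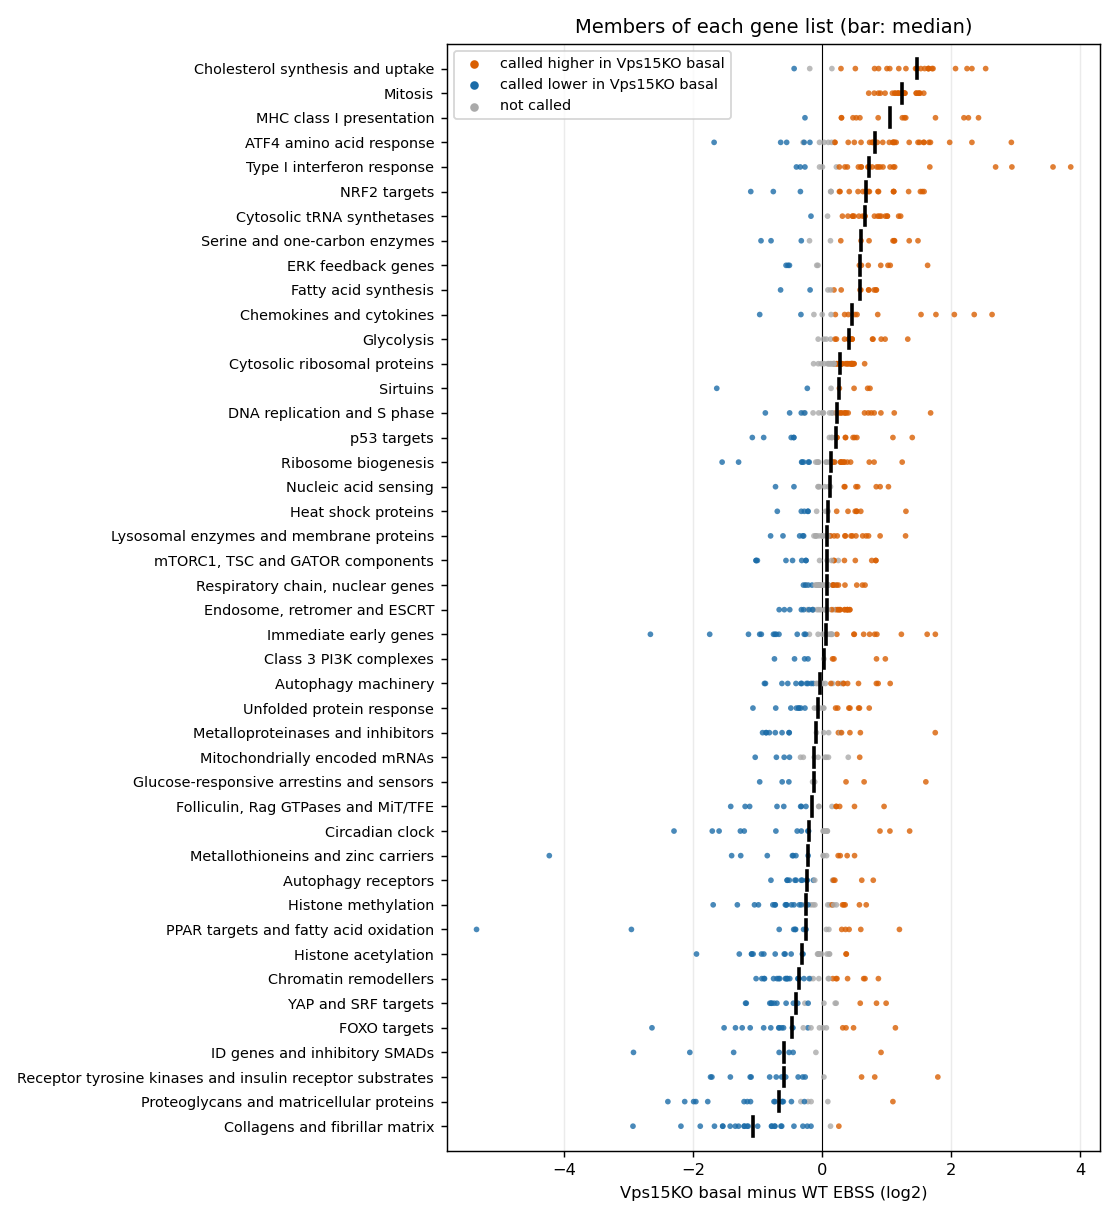
Log2 difference between Vps15KO basal and WT EBSS (horizontal axis) of each tested member of 44 gene lists, ordered by the list median (bar); colours mark members called higher, lower or not called. The lists run from a median of 1.47 for cholesterol synthesis to -1.07 for collagens, and all 25 mitosis genes lie to the right of 0.

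The genes at matched levels were read against WT basal, to separate those shared with fed control cells from those that were not. Over all 14279 genes tested, matched or not, the mean of both groups differed from WT basal in 8520 (59.7%), 4365 above and 4155 below. That count includes genes whose levels differ between the 2 groups, so it does not count levels held in common. Few matched genes lay far from WT basal: 4 lay at least 1 above it on the log2 scale (Zfand2a, Ciart, Atp6v1c1 and Rab32) and 1 at least 1 below it (Id3). With matching within 0.5 these counts were 30 and 14. Zfand2a (chr5:139471216-139484491), a zinc finger protein of the stress response that binds the proteasome, stood at 2256, 2119 and 2041 in Vps15KO basal and 2003, 1963 and 2284 in WT EBSS. The 2 groups overlapped, with a difference of 0.04 (95% interval -0.10 to 0.18, adjusted p of the match = 0.0185, limma). Both lay above WT basal, at 724, 734 and 707, by 1.51 ± 0.06. In Vps15KO EBSS the level was 6537, 6258 and 6027, above all others.

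Ciart, a repressor of the circadian clock, stood at 161, 180.3 and 172 against 164, 155 and 177 (interval -0.13 to 0.22), and WT basal was lower, at 67.1, 62.5 and 70.0. Cry1, another clock repressor, stood at 506, 505 and 592 against 495, 499.6 and 590.3 (interval -0.18 to 0.21), with WT basal at 296, 233 and 267. For both genes the Vps15KO EBSS libraries were highest, at 990.2, 996 and 1065 for Ciart and 891, 905 and 842 for Cry1. Atp6v1c1, a subunit of the proton pump that acidifies lysosomes, stood at 3237, 3148 and 3181 against 3492, 3172 and 3166, above WT basal by 1.05 ± 0.05. Rab32, a GTPase of lysosome-related organelles, stood at 256 ± 14.9 against 256 ± 14.2 (1.02 ± 0.08 above WT basal), and Tfrc, which imports iron bound to transferrin, at 982 ± 61.3 against 1010.2 ± 83.6 (0.91 ± 0.06). The other named genes above WT basal were Tgoln1, Abcb6, Ttc39b, Mfsd1, Sema3c and the tRNA exporter Xpot, by 0.76 to 0.89. Of the 12, 11 had a promoter in the table and 4 of these (36.4%), Ciart, Cry1, Mfsd1 and Xpot, held CACGTG, against 9.8% of all tested.

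Among matched genes below WT basal, Id3, an inhibitor of basic helix-loop-helix factors, stood at 1067, 1088 and 978 in Vps15KO basal and 1111, 1087 and 1155 in WT EBSS (interval -0.22 to 0.03), and WT basal at 2259, 2349 and 2275. Vps15KO EBSS shared the low level, at 1104, 1132 and 1183. Rgs2, which turns off G-protein signals, stood at 4773 ± 339 against 4548 ± 400.2 and at 8505 ± 316 in WT basal. Hdac7, a class IIa deacetylase, stood at 3399 ± 220.1 against 3539 ± 101 and at 5971 ± 691 in WT basal. Ikbke, a kinase of innate immune signalling, stood at 391 ± 23.7 against 379 ± 12 and at 648 ± 51.2 in WT basal. Slc4a3, Ano8, Plekha4, Sertad3, Abhd14b, Dbn1, Mthfsd and Tbck completed the 12, at -0.70 to -0.85 from WT basal. Matching at 0.3 depended on which libraries were included. In simulated data where 14079 of 14279 genes were unchanged, 62.7% of the unchanged genes met it. In the deposited data 65.8% of genes were called different. The adjusted p depends on that share, so the simulated rate does not carry over. By limma in the deposited data, matching at 0.3 was met by 0 genes when Vps15KO basal replicate 1, 2 or 3 or WT EBSS replicate 2 or 3 was left out. In those cases 2392 to 2491 genes met it at an unadjusted p under 0.05. It was met by 182 genes without WT EBSS replicate 1, and by 2141 without WT basal replicate 2, which enters the difference through the shared estimate of spread alone. Within 0.5, 5210 to 6636 genes matched with any 1 library left out. All 64 matched genes named by the rule still matched within 0.5 in each of these cases.

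**Figure D5:**
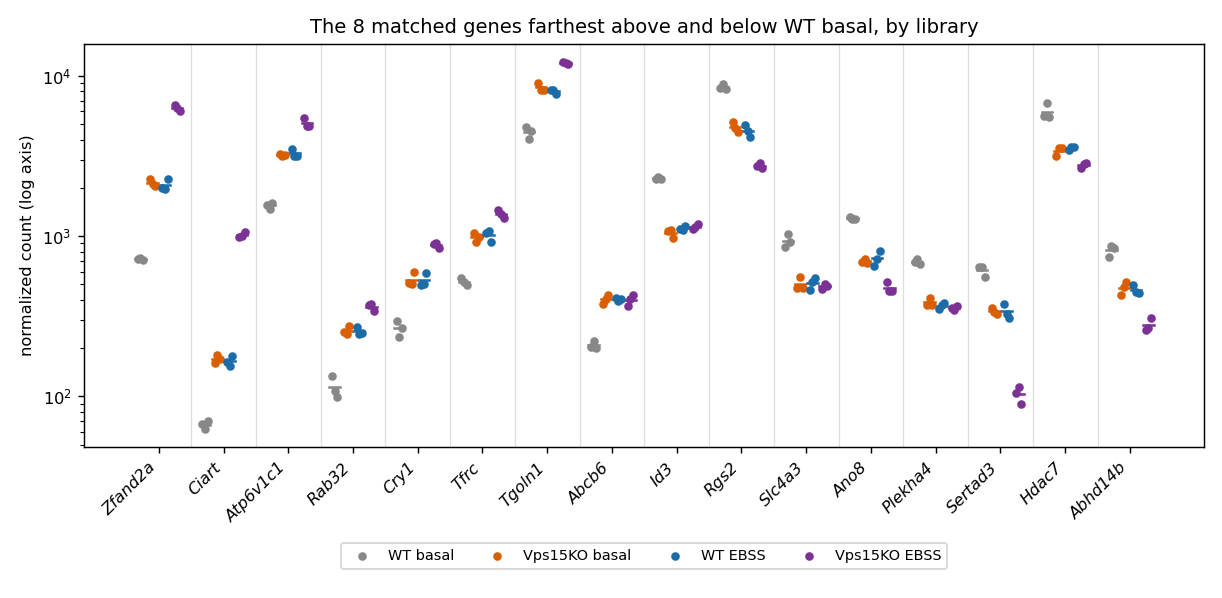
Normalized counts (log axis) by library of the 8 matched genes farthest above and the 8 farthest below WT basal; points are libraries, coloured by group, and bars are group means. Orange (Vps15KO basal) and blue (WT EBSS) points of each gene lie at one level and grey WT basal points at another, below for the first 8 genes and above for the last 8.

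Clock genes were split between matching and separation, beside 32.4% higher, 33.4% lower and 7.55% matched within 0.3 over all genes tested. Of 19 tested, 3 were higher in Vps15KO basal, 10 lower and 6 not called, of which 4 matched: Cry1, Ciart, Per3 and Bhlhe40. Hlf, a clock output factor, stood at 118, 102 and 106 against 664, 666 and 585 (-2.30 ± 0.11), with WT basal at 89.6 ± 19 (SD, n = 3), near the fed knockout. Nr1d2, a nuclear receptor of the clock, stood at 1265 ± 105 against 3079 ± 82.7 (-1.27). Per1 went the other way: it stood at 1217, 1347 and 1418 against 412, 549.5 and 552 (1.36 ± 0.10), and WT basal, at 1466, 1574 and 1334, lay with the fed knockout. CACGTG was found in 5 of 16 clock promoters (31.2%), against 9.8% of all tested.

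Autophagy, lysosome and endosome genes held members of both directions. Over all genes tested, 32.4% were higher, 33.4% lower and 7.55% matched within 0.3. The autophagy counts of higher and lower genes lay near those shares. Of 30 autophagy genes 9 were higher, 11 lower and 10 not called, with 6 matched (median -0.03, and 0.015 after quantile normalization). Ulk1, the kinase that starts autophagy, stood at 1460.1 ± 22.3 against 2739.9 ± 114 (-0.89), and its partner Rb1cc1 was lower too (-0.88). Vmp1, a membrane protein of autophagosome formation, was higher (6204 ± 229 against 3382 ± 57.7, 0.87), and Gabarapl1 (9778 ± 225 against 9731 ± 187) and Atg2b (1388 ± 102 against 1436 ± 196) matched. Of 17 autophagy receptors 4 were higher, 11 lower and 2 not called (median -0.24). The receptor Sqstm1 was above WT basal in both states, at 44427 ± 3376 and 52458 ± 1448 against 18105 ± 350.4 (-0.24). Of 30 lysosomal genes 13 were higher, 5 lower and 12 not called (median 0.08), or 17 and 5 after quantile normalization (median 0.21). The lysosomal list held 7 matched genes, among them the protease Tpp1 (10083 ± 739 against 10424 ± 341). The sialidase Neu1 stood at 3924 ± 149 against 1583 ± 47 (1.29) and the cholesterol exporter Npc1 at 2714 ± 47.5 against 1442 ± 28.4 (0.90). Of 30 genes of endosomes, retromer and ESCRT 13 were higher, 8 lower and 9 not called, with 5 matched, including the retromer subunit Vps29 and the sorting nexin Snx2.

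Genes of the lysosomal nutrient switch were divided as well, beside 32.4% higher and 33.4% lower over all genes tested. The counts of the mTORC1, TSC and GATOR list lay near those shares. Of 16 folliculin, Rag GTPase and MiT/TFE genes 5 were higher and 8 lower. Fnip2, a folliculin partner, stood at 4010, 3880 and 4056 in Vps15KO basal, 9017, 9763 and 8689 in WT EBSS and 1451, 1339 and 1369 in WT basal (-1.19 ± 0.06). Both states were above fed control cells, and the starved one was higher. Fnip1 (-1.42), Flcn (-1.12) and Rragc (-0.70) were lower in Vps15KO basal as well, while Rragd, another Rag GTPase, was higher (99.2 ± 2.48 against 39.9 ± 8.58, with WT basal at 11.3 ± 3.97) and Lamtor1 and Lamtor5 matched. Of 19 mTORC1, TSC and GATOR genes 7 were higher and 8 lower, with the inhibitor Tsc1 at 928 ± 40.2 against 1923 ± 196 (-1.02) and Nprl2, a GATOR1 subunit, at 636 ± 28.8 against 345 ± 28.7 (0.83).

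Among the genes with differences of at least 1, fed control cells lay mostly between the 2 states. These genes were chosen for a wide gap between Vps15KO basal and WT EBSS. That choice by itself favours WT basal falling inside the gap. The placement of genes not chosen in this way was not counted, so no conclusion is drawn from the share lying between. Of the 654 higher in Vps15KO basal, WT basal lay between in 497, and was nearer to WT EBSS than to Vps15KO basal in 413 (63.1%). Of the 774 lower, it lay between in 569 and was nearer to Vps15KO basal in 482 (62.3%). The Vps15KO EBSS group was nearer to Vps15KO basal than to WT EBSS in 538 of the 654 (82.3%) and in 403 of the 774 (52.1%). These are counts of group means, with no test.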

How the data were processed

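Poly(A) RNA of 12 libraries was sequenced after a strand-marking dUTP preparation, per the labels' protocols, and the authors deposited 1 table of variance-stabilized log2 values for 32721 genes. Tools listed in the submitters' processing notes, with no role given, are featureCounts, limma, DESeq2 and STAR (version 2.7.10b), and the build is mm10. Whether the counting used strand is not given in the sources used here, so antisense and overlapping genes, near-identical copies included, are uncertain. Read counts were worked back from the deposited values (100% of values within 0.001 of a whole number). Library totals were 21278921 to 21698584 reads, and a count of 0 allows up to 3 reads, for counting error only.

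Differences were fitted on the deposited log2 values by limma (version 3.58.1, R 4.3.3) as a mean per group over all 12 libraries, and with a variance trend, over the 14279 genes whose mean lay at least 1 above the floor (3.83, the value of 0 reads). Folds compare mean normalized counts. On this scale differences of low genes are understated. Matching was tested with 2 one-sided tests at 0.3. The shared distance is the mean of both groups minus WT basal. Simulated data with known changes were used as a test over 14279 genes for this comparison: 30% of genes changed 1.25-fold were called, 80% at 1.5-fold and 90% at 2-fold, with 0.0568% of unchanged genes called. The simulation left 14079 genes unchanged, while 65.8% of genes were called in the deposited data. Adjusted p-values depend on that share, so these rates do not carry over to the deposited data.

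The members and lists (52, of which 8 hold cell type markers) were chosen with earlier results of these data known. Genes named are Pik3r4, the 15 largest differences in each direction without overlap whose mean exceeds the floor by at least 3, the 12 largest shared distances in each direction among matched genes with all 6 libraries on one side of WT basal, and of each list up to 4 members with the smallest p and up to 2 matched ones. Predicted genes and pseudogenes were left out. Other list members printed, such as Asns, Trib3, Ddit3, Atf4, Slc7a1, Hars, Insig1, Hsd17b7, Fth1, Ftl1, Irf9, Ddx58, Cmpk2, Col1a1, Ccn3, Spp1, Eif4ebp1, Pik3c3, Sqstm1, Rragd, Nprl2, Per3, Bhlhe40 and Slc30a6, were chosen after their values were seen. Promoters came from the RefSeq table of build GRCm38.p6, which held 10879 of the genes tested. Same-numbered replicates did not deviate together (correlations of -0.0628 to 0.0199), and the numbers are not used as pairs. Alternatives were other normalizations, filters, scales, library weights, voom on the worked-back reads, trends with length and GC content removed, other bounds for matching, a replicate block and libraries left out.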

Additional observations from a re-analysis of the deposited data

How the results depend on the processing

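The counts of genes higher and lower stayed within 1.5 times under every alternative except a demand for at least 1 on the log2 scale (654 and 774), and without WT EBSS replicate 1 and WT basal replicate 2 they were 4860 and 4971. With the replicate number as a block they were 4618 and 4770, and the numbers do not pair the samples. With either WT EBSS replicate 1 alone or both of those libraries left out, 25 of 25 mitosis and 22 of 25 cholesterol genes were higher. Of 270 results on named genes, 252 kept their direction and their side of the threshold in each of the 25 settings in which they could be computed. That was 206 results in the 2 settings limited to the groups compared, 261 under the stricter filter and 265 with length and GC trends removed. The 3 reversals came with length and GC trends removed, in the shared distance of Klf2 (0.18), Bcl2 (-0.028) and Vps29 (-0.015). Matching was the least stable: against 1078, 1733 genes matched with a block over the 2 groups alone, 1886 with those groups alone, 528 with no filter, 465 with no variance trend, 2119 with library weights, 1878 with length and GC trends removed, 1898 without both libraries that stand apart, 0 at a bound of 0.2 and 6129 at 0.5, and 0 to 2141 with 1 library left out. Matched genes at least 1 above WT basal (4) numbered 2 with no filter, 1 after quantile normalization, 2 on log2 of the count plus 1, 2 by voom, 0 and 30 at bounds of 0.2 and 0.5, and 0 to 6 with 1 library left out. Those below (1) numbered 2 with the replicate block, 0 with no filter, 2 under the stricter filter (mean exceeding the floor by 3), 2 after quantile normalization, 0 with equal medians, 0 with no variance trend, 3 with library weights, 3 without both libraries that stand apart, 0 and 14 at the bounds, and 0 to 3 with 1 library left out. List medians moved as follows. Under that filter, folliculin genes had -0.25, MHC class I 0.87 and metalloproteinases -0.51. After quantile normalization, ATF4 genes had 0.93, tRNA synthetases 0.79, PPAR targets -0.19, glycolysis 0.52, autophagy 0.015, lysosome 0.21, NRF2 0.79, unfolded protein response 0.036, heat shock 0.21, ribosome biogenesis 0.21, respiratory chain 0.14 and receptor kinases -0.49. With equal medians, PPAR targets had -0.28 and autophagy -0.065. On log2 of the count plus 1, ID genes had -0.79 and YAP and SRF targets -0.57, and by voom -0.80 and -0.58. With length and GC trends removed, tRNA synthetases had 0.73, fatty acid synthesis 0.70, PPAR targets -0.20, glycolysis 0.36, arrestins -0.00155, class 3 kinase 0.23, clock -0.031, nucleic acid sensing 0.26, respiratory chain -0.016, collagens -0.86, receptor kinases -0.43, remodellers -0.15, histone acetylation -0.37, histone methylation -0.076 and fibroblast markers -1.04. Without both libraries that stand apart, PPAR targets had -0.22. With 1 library left out, PPAR targets ranged from -0.28 to -0.22, class 3 kinase from -0.036 to 0.059, autophagy from -0.040 to -0.0026 and heat shock from 0.083 to 0.18. The cause of these shifts was not tested, except that fewer samples widen the errors. In simulated data with most genes unchanged, 30% of genes changed 1.25-fold were called, a rate that does not carry over to the deposited data.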

Other observations

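Among all genes tested, 32.4% were higher in Vps15KO basal than in WT EBSS and 33.4% lower. The counts of the immediate early and unfolded protein response lists lay near those shares. The ERK feedback and p53 lists held a larger share of higher genes. Of 31 immediate early genes 10 were higher in Vps15KO basal, 12 were lower and 9 were not called. Fosl1, an AP-1 subunit, stood at 703, 773 and 719 normalized counts against 185, 197 and 210 (1.76 ± 0.08, log2 difference and SE, limma adjusted p = 2.0e-12), while the nuclear receptor Nr4a3 went the other way, at 107, 88.2 and 83.3 against 872, 639 and 689 (-2.66 ± 0.11). Of 12 feedback genes of the ERK pathway 7 were higher and 3 lower, among them the phosphatase Dusp4 (837 ± 127 against 249 ± 16.3, SD, n = 3, with WT basal at 179 ± 31.7) and the inhibitor Spry4 (424 ± 44.1 against 213 ± 15), for which WT basal was higher than both (737 ± 13.3). Of 20 unfolded protein response genes 7 were higher, 8 lower and 5 not called, with the chaperone Dnajb9 at 1119 ± 61.1 against 2386 ± 186 (-1.07) and Edem1, of the degradation branch, at 2911 ± 99.9 against 1742 ± 6.72 (0.73). Of 18 p53 targets 10 were higher and 5 lower, with the kinase Plk2 at 1.4 and Sesn1, which inhibits mTORC1, at -0.91. Of 16 heat shock genes 7 were higher and 5 lower, and Hsp90aa1 matched within 0.3 while lying above WT basal (10327 ± 311 against 9759 ± 239, with WT basal at 6656 ± 354).

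Counts of mitochondrial genes stand beside 65.8% of all genes tested that were called in either direction. Of 32 nuclear genes of the respiratory chain 9 were higher, 4 lower and 19 not called, and 10 matched within 0.3. With length and GC trends removed 5 were higher and 9 lower, and after leaving out both libraries that stand apart 13 were higher and 5 lower. Cyc1, cytochrome c1, stood at 3243 ± 123 against 2033 ± 68.6 (0.67), and Cox4i1, a subunit of cytochrome oxidase, matched at 9080.5 ± 335 against 9248 ± 359, below WT basal (11892 ± 2020.1). Of 13 mitochondrially encoded mRNAs 1 was higher, 4 were lower and 8 were not called, and without WT EBSS replicate 1, the library with the lowest share of such reads, 1 was higher and 6 lower. CYTB stood at 27961, 18570 and 21275 against 29920, 54654 and 58549 (-1.04 ± 0.18) and COX1 at 267777, 210778 and 279081 against 120996, 187996 and 205919 (0.58 ± 0.15). The receptor Optn, which links cargo to autophagosomes, was higher in Vps15KO basal (321 ± 8.77 against 174 ± 7.67, 0.79), and the receptor Tollip was lower (1901 ± 37.2 against 3315 ± 20.6, -0.79). In ribosome biogenesis, 13 of 30 genes were higher and 7 lower, with Noc2l, an assembly factor, at 2088 ± 60.9 against 867 ± 26.6 (1.24) and Ubtf, which drives ribosomal RNA synthesis, at 1676 ± 52 against 4968 ± 313 (-1.55).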
